A study of Homo sapiens with 6 samples.

Results

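The genes described here are 42 genes of the G2 phase and mitosis, among them mitotic cyclins and kinases, kinetochore and spindle proteins and cytokinesis factors. They were chosen by symbol, with earlier results of these data known. Each of the 42 symbols matched 1 of the 48162 Ensembl genes in the count table. Messenger RNA was sequenced from SiHa, an established human cervical carcinoma cell line, in 2 groups of 3 samples harvested 48 h after transfection, and the study describes the samples of a group as independent assays. One group received si-CNN3#1, a small interfering RNA against the actin-binding protein calponin 3 (CNN3), and the other received si-NC, a non-targeting control, so that both groups were transfected and neither carried an engineered allele. A single siRNA was sequenced, so effects of CNN3 loss and of this duplex itself cannot be told apart in these samples.

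Genes of the G2 phase and mitosis form one of the best known periodic programmes of proliferating cells. Their transcripts are held down in resting and early-cycle cells, rise through G2 and fall as cells divide, and many of them are the target genes of the transcription factors FOXM1 and B-MYB (MYBL2), the latter working with the MuvB complex. Their protein products drive entry into mitosis (cyclin B with CDK1), build the spindle, attach chromosomes to it, hold anaphase until the attachment is complete, and divide the cell. In papillomavirus-positive cervical carcinoma cells such as SiHa, the viral oncoproteins inactivate p53 and RB, which otherwise restrain these genes. In RNA from a whole culture, fewer cells in G2 and mitosis and less RNA in each such cell cannot be told apart.

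CNN3 served as the check of the labels. Its normalised level was 26.0, 26.8 and 31.4 CPM (counts scaled to a common library size by TMM) in the si-CNN3#1 samples and 56.5, 51.7 and 57.2 CPM in the si-NC samples, so the si-CNN3#1 samples lay at 50.9% of the control level (log2 fold change -0.97, edgeR adjusted p = 2.04e-20). Total counts ran from 18147028 to 19026341 with si-CNN3#1 and from 20287139 to 24976517 with si-NC, and every si-NC sample was therefore the deeper one. The 6 epithelial genes listed were all detected, from KRT7 at 800 FPKM (the deposited values, counts over gene length and library total) in the mean of the si-NC samples to CDH1 at 20.02, KRT19 at 6.72 and EPCAM at 5.45 FPKM. Among them the keratins KRT8 and KRT18 passed as lower with si-CNN3#1, at 471.5 against 531 FPKM and 102 against 115 FPKM (log2 fold change -0.19 and -0.18, edgeR adjusted p = 4.87e-07 and 5.31e-05). The summed level of the 5 fibroblast genes listed was between 8.23 and 9.33 FPKM over all samples, and the leukocyte marker PTPRC averaged 0.289 FPKM with si-NC, but the monocyte gene CD14 averaged 136 FPKM with si-NC and 112 FPKM with si-CNN3#1 and passed the threshold as lower. The part of these marker changes in the results on the 42 genes was not tested.

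Most of the promoters found for these genes hold the letters TTTGAA somewhere in the sequence searched, a motif that the choice of genes did not use. The cell cycle genes homology region, a hexamer with the letters TTTGAA just before the start of transcription, is the binding element of the MuvB complex, and CCAAT boxes bound by NF-Y often lie upstream of it. Promoter sequences from RefSeq on GRCh38.p14, each holding 250 bases before and 50 bases after a start, were found for 35 of the 42 genes. TTTGAA, searched on both strands and at any position, was present in the promoter of 25 of these 35 genes (71.4%) when any annotated start was accepted. It was present in 13.7% of the 10570 tested genes with a promoter in the table. In genes with a single annotated start it was present in 22 of 29 (75.9%), against 9.43% of 7553 tested genes. CCAAT, on either strand, was present in 28 of the 35 genes (80.0%), against 42.9%, and both were present in 21, against 5.70% of tested genes. Of 108 other mitotic genes with a promoter sequence, from a list described below, 51 (47.2%) held TTTGAA, 67 (62.0%) CCAAT and 30 (27.8%) both. Neither motif was thus particular to the 42 genes. In 14 of the 35 genes (40.0%) a TTTGAA hexamer began 10 to 49 bases before the start, against 1.93% of tested genes.

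The windows below show this hexamer, in capitals, in 5 genes that were lower with si-CNN3#1 and then in 5 that did not pass the threshold. Each is 30 bases from the sequence before the start, written 5′ to 3′ along the strand of the gene on GRCh38.p14, and the capitals read TTCAAA where the hexamer lies on the other strand.
MKI67, chr10:128126435-128126464, minus strand: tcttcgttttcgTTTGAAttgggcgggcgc
KIF4A, chrX:70290058-70290087, plus strand: ctccgggacggaTTTGAAacttggcggtta
CENPA, chr2:26786026-26786055, plus strand: cggagcgagcgaTTTGAAcgcgagcggcgc
CDCA8, chr1:37692481-37692510, plus strand: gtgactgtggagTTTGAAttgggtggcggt
KIF11, chr10:92593090-92593119, plus strand: ctctgtctctttTTCAAAttgaggcgccga
PLK1, chr16:23678848-23678877, plus strand: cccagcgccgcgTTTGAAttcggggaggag
CCNB2, chr15:59105105-59105134, plus strand: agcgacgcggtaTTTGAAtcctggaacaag
BUB1B, chr15:40161034-40161063, plus strand: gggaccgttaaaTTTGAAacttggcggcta
PRC1, chr15:90994538-90994567, minus strand: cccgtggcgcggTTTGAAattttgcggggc
HMMR, chr5:163460592-163460621, plus strand: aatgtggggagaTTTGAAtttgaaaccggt
The hexamer began 29 bases before the start of MKI67, PLK1 and CCNB2, 28 before that of KIF11 and of HMMR, 34 before that of KIF4A, 23 before that of CDCA8 and of BUB1B, 20 before that of PRC1 and 18 before that of CENPA. MKI67 and HMMR hold a second hexamer, 47 and 22 bases before the start. TTTGAA was present in 73.3% of the 15 lower genes with a promoter sequence and in 70.0% of the 20 that were not called. CCAAT was present in all 15 of the former and in 13 of the latter (65.0%), and both motifs in 11 of the 15 and 10 of the 20, and neither difference was tested. A match of letters is a description of the sequence and was not tested as a binding site.

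**Figure D1:**
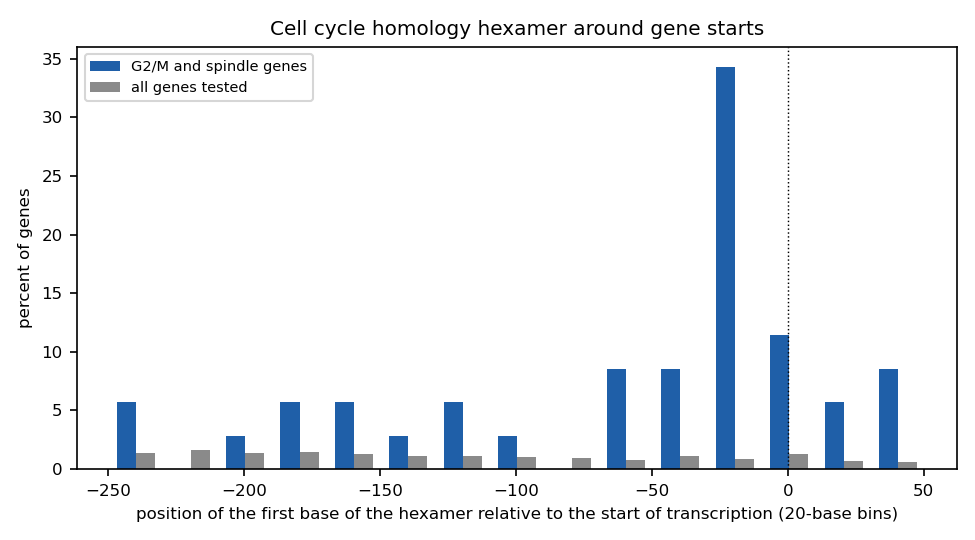
Percent of genes with a TTTGAA hexamer on either strand that begins in each 20-base bin, by distance in bases from the annotated start of transcription (dotted line, upstream to the left), for the 35 G2/M and spindle genes with a promoter sequence (blue) and all tested genes with one (grey). The tallest blue bar, 10 to 29 bases before the start, holds 34.3% of the 35 genes and 0.880% of the tested genes.

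Of the 42 genes of the G2 phase and mitosis, 16 (38.1%) were lower after transfection of si-CNN3#1, all by small amounts, and 26 did not pass. The test was edgeR's quasi-likelihood fit over 15860 genes at a Benjamini-Hochberg adjusted p of 0.05 or less. Of all genes tested it called 7.14% lower and 6.17% higher, or 13.3% in either direction. Lower genes were 53.7% of all calls, and 40.0% of them when total counts alone set the scale. None of the 42 was called higher by this edgeR fit or by DESeq2, and 9 others had an unadjusted p under 0.05 in this edgeR fit, with HMMR above 0 and the rest below. DESeq2 called 12 of the 42 lower, where it called 5.02% of the genes it tested lower and 3.39% higher, or 8.41% in all. All 42 genes averaged at least 20 CPM, a limit chosen after the values were seen, and of the 8062 genes at or above it 12.1% were lower and 8.46% higher, and 51.8% had a log2 fold change below 0. The 16 decreases ran from a log2 fold change of -0.26 (MKI67, 83.4% of the control level) to -0.089 (KIF11, 94.1%). The log2 fold change was below 0 in 37 of the 42 genes, against 49.3% of all genes tested, with a median of -0.071 over the 42 and 0.0023 over all genes. With total counts as the scale, the median of all genes moved to 0.019 and that of the 42 to -0.054. Such a change of scale moves every gene by nearly the same amount. The gap between these medians, -0.073 under either scale, was therefore fixed in advance and is not a separate result.

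**Figure D2:**
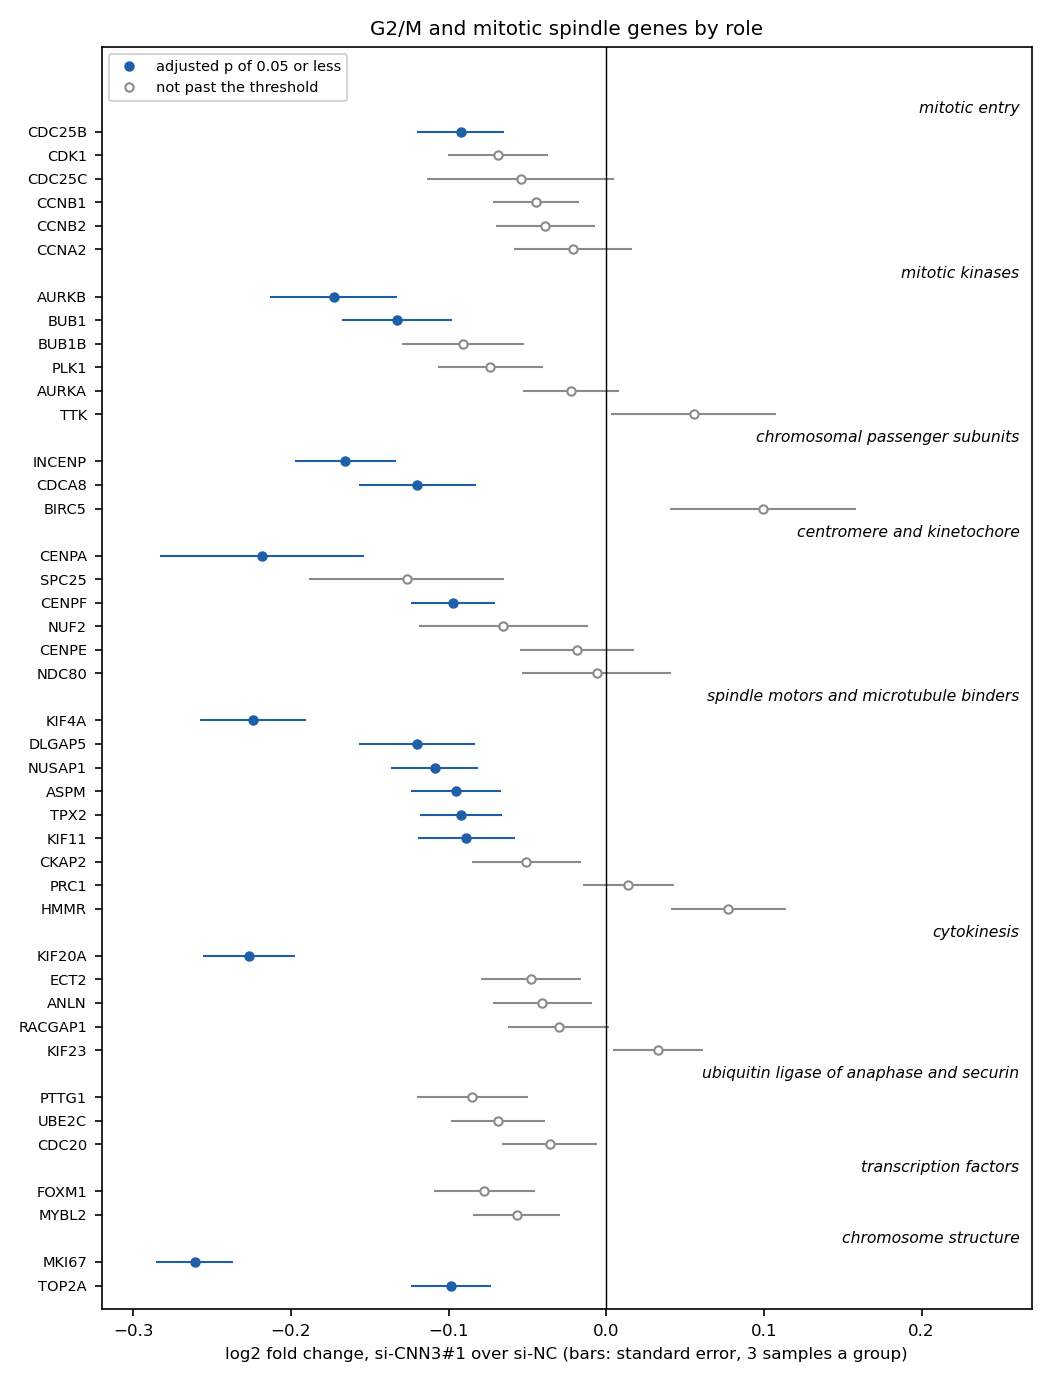
Log2 fold change of each of the 42 genes, si-CNN3#1 over si-NC, with its standard error (bars, 3 samples a group), grouped by role. The 16 filled points had an adjusted p of 0.05 or less and lie between -0.26 and -0.089, while the open points, not past the threshold, lie on both sides of 0 and reach 0.10 at BIRC5.

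The shift was seen in each of the si-CNN3#1 samples. The median over the 42 genes of log2 CPM relative to the si-NC mean was -0.081, -0.071 and -0.065 in the si-CNN3#1 samples and -0.016, 0.0074 and 0.0022 in the si-NC samples. All 3 si-CNN3#1 samples thus lay below all 3 si-NC samples on this summary. Gene by gene, the si-CNN3#1 samples lay wholly below the si-NC samples in 22 of the 42 genes and wholly above them in 1 (HMMR), where 14.3% of all genes tested lay wholly below and 13.9% wholly above. These shares were not computed for genes averaging at least 20 CPM. In 2 lists described below, 14 of 33 G1/S and replication genes lay wholly below and 2 wholly above. Of 125 other mitotic genes, 34 lay wholly below and 12 wholly above. The exact two-sided permutation test of any single gene cannot give a p under 0.1 with 3 samples against 3. The count of lower genes rested on several samples: it was 8 without si-NC replicate 2, 9 without si-CNN3#1 replicate 1 and 10 without si-NC replicate 3, while the median log2 fold change stayed between -0.081 and -0.067 in the 6 fits that each left out 1 sample.

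**Figure D3:**
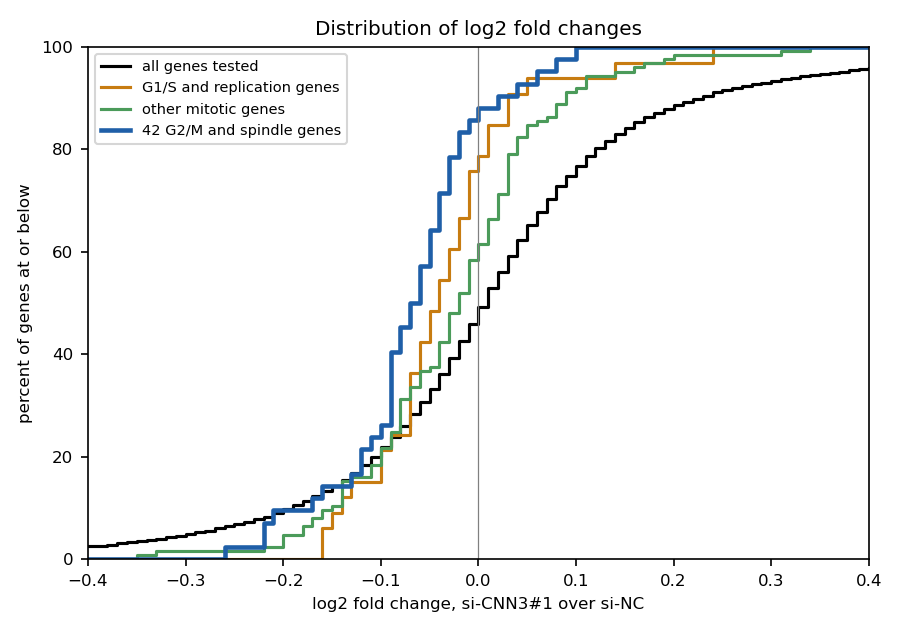
Percent of genes at or below each log2 fold change (si-CNN3#1 over si-NC) for the 42 G2/M and spindle genes, 125 other mitotic genes, 33 tested G1/S and replication genes and all 15860 genes tested. The curve of the 42 genes crosses 0 at 37 of 42 genes and has reached its end at 0.10, whereas the curve of all genes is near its middle at 0.

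Both genes of chromosome structure were lower. MKI67 encodes Ki-67, the proliferation antigen that coats mitotic chromosomes, and was at 608, 618 and 612 CPM with si-CNN3#1 against 737, 730 and 736 CPM with si-NC. The groups were far apart relative to their spread, 612.8 ± 5.24 against 734 ± 3.76 CPM (SD, n = 3 each). The log2 fold change was -0.26 (standard error 0.024, edgeR adjusted p = 1.76e-12), the largest decrease of the 42, and MKI67 passed the threshold in each of the 22 alternative settings. TOP2A, the topoisomerase that separates intertwined sister chromatids, was at 575, 602 and 578 CPM against 613, 640.3 and 625 CPM. Its groups did not overlap, but the highest si-CNN3#1 sample lay close to the lowest si-NC sample. The log2 fold change of TOP2A was -0.098 (standard error 0.026, edgeR adjusted p = 0.0049), and without si-NC replicate 2 it was -0.082 with an adjusted p of 0.0544.

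Of the 6 genes of mitotic entry, 1 was lower and the cyclins and CDK1 did not pass. CDC25B encodes the phosphatase that starts the activation of CDK1, and it was at 248.6, 250.6 and 239 CPM with si-CNN3#1 and 263, 264 and 260.1 CPM with si-NC, with every treated sample below every control. Its log2 fold change was -0.092 (standard error 0.027, edgeR adjusted p = 0.0158). The adjusted p of CDC25B was 0.0997 without si-CNN3#1 replicate 3, 0.0549 without si-NC replicate 1 and 0.0612 without si-NC replicate 2. CCNB1, the cyclin that binds CDK1 for mitosis, was at 232, 227 and 233 CPM against 242, 236 and 236 CPM, again without overlap. The size of that difference was a log2 fold change of -0.044 (standard error 0.027), which did not pass (edgeR adjusted p = 0.328). CDK1, the kinase itself, was at 154, 151 and 160.3 CPM against 157, 170 and 160.4 CPM. Its groups overlapped, and the log2 fold change was -0.069 (standard error 0.032, edgeR adjusted p = 0.155). CDK1 passed in 1 alternative setting, with counts thinned to the smallest total and a replicate block (edgeR adjusted p = 0.0437). CCNB2, CCNA2 (cyclin A, which acts in S phase and G2) and CDC25C (a second CDK1 phosphatase) had log2 fold changes of -0.039, -0.021 and -0.054, and none of them passed under any alternative.

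Among the 6 mitotic kinases, AURKB and BUB1 were lower. AURKB, the Aurora kinase that corrects wrong chromosome attachments, was at 59.4, 61.1 and 61.3 CPM with si-CNN3#1 and 69.8, 66.8 and 68.4 CPM with si-NC. The groups were apart by several times their SD, and the log2 fold change of -0.17 (standard error 0.040, edgeR adjusted p = 0.0015) passed in all 22 alternative settings. BUB1, a checkpoint kinase of the kinetochore, was at 90.4, 90.4 and 89.3 CPM against 99.7, 100.5 and 95.9 CPM. BUB1 showed no overlap, and its log2 fold change was -0.13 (standard error 0.035, edgeR adjusted p = 0.00551). BUB1B (BUBR1, the checkpoint inhibitor of anaphase) and PLK1 (Polo-like kinase 1, which acts from mitotic entry to cytokinesis) lay at 93.8% and 95.0% of the control level, in both cases without overlap and without passing (edgeR adjusted p = 0.12 and 0.145). AURKA, the Aurora kinase of the spindle poles, was at 150, 156 and 159 CPM against 158, 156 and 157 CPM. Those groups overlapped, with a log2 fold change of -0.022 (standard error 0.030, edgeR adjusted p = 0.721). TTK (MPS1, which starts checkpoint signalling) had a log2 fold change of 0.056 with overlapping groups (edgeR adjusted p = 0.566).

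AURKB works in the chromosomal passenger complex, whose other subunits are INCENP, borealin (CDCA8) and survivin (BIRC5). INCENP, the scaffold, was at 122, 127 and 121 CPM with si-CNN3#1 and 137, 137 and 142 CPM with si-NC. The 2 groups did not overlap, and the log2 fold change was -0.17 (standard error 0.032, edgeR adjusted p = 0.000113). CDCA8 was at 73.8, 78.0 and 77.6 CPM against 81.9, 84.1 and 83.0 CPM. The treated samples were all below the controls, and the log2 fold change of CDCA8 was -0.12 (standard error 0.037, edgeR adjusted p = 0.0223), but its adjusted p was 0.139 without si-CNN3#1 replicate 1, 0.0993 without si-NC replicate 2 and 0.0602 without si-NC replicate 3. BIRC5 was the exception in direction among these subunits, at 27.0, 26.6 and 29.7 CPM with si-CNN3#1 and 26.9, 25.8 and 25.1 CPM with si-NC. Its groups overlapped, the log2 fold change of 0.0997 (standard error 0.059) did not pass (edgeR adjusted p = 0.302), and whether BIRC5 differed in response from its partners was not tested.

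**Figure D4:**
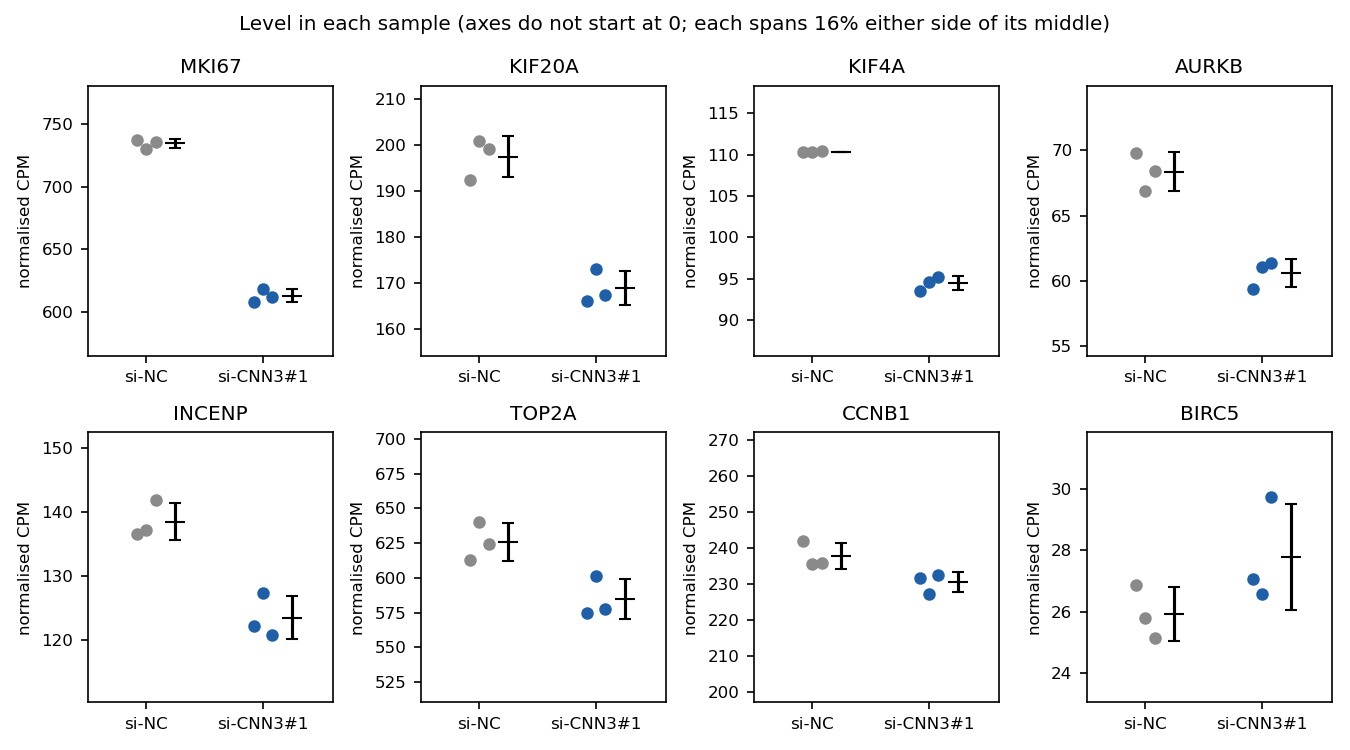
TMM-normalised CPM of 8 genes in each si-NC (grey) and si-CNN3#1 (blue) sample, with the mean and SD of 3 samples beside the points; the axes do not start at 0 and each spans the same relative range. The si-CNN3#1 points of MKI67, KIF20A, KIF4A, AURKB, INCENP, TOP2A and CCNB1 all lie below the si-NC points, while those of BIRC5 overlap with them.

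Of the 6 centromere and kinetochore genes, CENPA and CENPF were lower. CENPA, the histone variant that marks the centromere, was at 21.2, 20.5 and 23.8 CPM with si-CNN3#1 and 23.2, 26.7 and 26.1 CPM with si-NC. One treated sample lay above 1 control, and the log2 fold change was -0.22 (standard error 0.065, edgeR adjusted p = 0.0159). The adjusted p of CENPA was 0.0758 without si-CNN3#1 replicate 1, 0.119 without si-CNN3#1 replicate 2, 0.117 without si-NC replicate 2 and 0.0764 without si-NC replicate 3. CENPA shares exon sequence on its own strand with SLC35F6, which had 221% of its counts and a log2 fold change of 0.013 (edgeR adjusted p = 0.902). CENPF, a large kinetochore protein that accumulates in G2, was at 366, 379 and 373 CPM against 385, 405 and 404 CPM. The groups were apart, with a log2 fold change of -0.097 (standard error 0.026, edgeR adjusted p = 0.00758). Its adjusted p was 0.0537 without si-CNN3#1 replicate 1, 0.0597 without si-NC replicate 2 and 0.0587 without si-NC replicate 3.

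Of the microtubule-binding NDC80 complex, the subunits NDC80, NUF2 and SPC25 did not pass. The fourth, SPC24, which belongs to the other mitotic genes examined, passed as lower (log2 fold change -0.14, edgeR adjusted p = 0.0158). Its groups overlapped, however, and DESeq2 did not call it (DESeq2 adjusted p = 0.116). Whether the subunits differed in response was not tested. NDC80 itself was at 48.8, 51.3 and 52.1 CPM with si-CNN3#1 and 47.1, 53.8 and 51.6 CPM with si-NC. These groups overlapped, the log2 fold change of -0.0061 (standard error 0.047, edgeR adjusted p = 0.959) turned to 0.011 with total counts as the scale, and it was above 0 in 8 of the alternative settings. NUF2 and SPC25 had log2 fold changes of -0.065 and -0.13 (edgeR adjusted p = 0.495 and 0.188), and SPC25 passed without si-CNN3#1 replicate 2 (-0.20, edgeR adjusted p = 0.043). CENPE, the kinesin that carries chromosomes to the spindle equator, had a log2 fold change of -0.018 (edgeR adjusted p = 0.816).

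The spindle motors and microtubule binders, the largest class, held the most decreases by count, 6 of 9 genes. KIF4A, a chromokinesin that sets the length of the central spindle, was at 93.6, 94.6 and 95.2 CPM with si-CNN3#1 and 110.3, 110.3 and 110.4 CPM with si-NC. The gap was many times the spread within either group, and the log2 fold change of -0.22 (standard error 0.033, edgeR adjusted p = 9.23e-07) passed in all 22 alternative settings. KIF11 (Eg5, the motor that pushes the spindle poles apart) was at 141, 141 and 144 CPM against 147, 156 and 149.6 CPM. KIF11 did not overlap between groups, and its log2 fold change of -0.089 (standard error 0.031, edgeR adjusted p = 0.046) was the one nearest the threshold of the 16. Its adjusted p was 0.13 and 0.113 without si-CNN3#1 replicates 1 and 2, 0.291 and 0.0798 without si-NC replicates 2 and 3, and 0.126 with total counts as the scale. TPX2, which activates AURKA on the spindle, was at 359, 365 and 372 CPM against 383, 395 and 389 CPM. Its samples separated by group, the log2 fold change was -0.092 (standard error 0.026, edgeR adjusted p = 0.0105), and the adjusted p was 0.0653 without si-CNN3#1 replicate 1 and 0.0735 without si-NC replicate 2.

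The 3 further decreases in this class were in NUSAP1, which bundles spindle microtubules, DLGAP5 (HURP), which stabilises the fibres that hold the kinetochores, and ASPM, which focuses the spindle poles. NUSAP1 was at 219.8, 226 and 228 CPM with si-CNN3#1 and 238, 244 and 244 CPM with si-NC, with a log2 fold change of -0.11 (standard error 0.028, edgeR adjusted p = 0.00399). DLGAP5 was at 76.5, 77.7 and 79.2 CPM against 83.6, 83.3 and 86.8 CPM, with a log2 fold change of -0.12 (standard error 0.037, edgeR adjusted p = 0.0201). ASPM was at 209, 221 and 221 CPM against 227, 234 and 234 CPM, with a log2 fold change of -0.095 (standard error 0.029, edgeR adjusted p = 0.0172). In all 3 genes the treated samples lay below the controls. The adjusted p of DLGAP5 was 0.0839 and 0.053 without si-CNN3#1 replicates 1 and 2 and 0.119 without si-NC replicate 3. That of ASPM was 0.148 without si-CNN3#1 replicate 1, 0.0727 without si-NC replicate 2 and 0.0835 without si-NC replicate 3. CKAP2 and PRC1, the latter the crosslinker of the central spindle, had log2 fold changes of -0.051 and 0.014 (edgeR adjusted p = 0.387 and 0.828). HMMR, a spindle protein and hyaluronan receptor, was at 88.1, 92.9 and 88.5 CPM with si-CNN3#1 and 82.4, 86.9 and 86.0 CPM with si-NC. HMMR was thereby the gene whose treated samples all lay above the controls, with a log2 fold change of 0.077 (standard error 0.036) that did not pass (edgeR adjusted p = 0.167). It passed as higher in 1 alternative setting, with counts thinned to the smallest total and a replicate block (edgeR adjusted p = 0.0448).

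Of the 5 cytokinesis genes, KIF20A was lower and the others did not pass. KIF20A (MKLP2), the kinesin that brings the passenger complex to the central spindle, was at 166, 173 and 167 CPM with si-CNN3#1 and 192, 201 and 199 CPM with si-NC. No sample crossed between the groups, and the log2 fold change of -0.23 (standard error 0.029, edgeR adjusted p = 3.31e-08) passed in all 22 alternative settings. ECT2, the exchange factor that activates RhoA at the cell equator, was at 151, 151 and 158 CPM against 155, 155 and 165 CPM. Its groups overlapped, with a log2 fold change of -0.048 (standard error 0.031, edgeR adjusted p = 0.368). ANLN (anillin, scaffold of the contractile ring), RACGAP1 and KIF23 (partners in the centralspindlin complex) had log2 fold changes of -0.041, -0.030 and 0.033, with overlapping groups and adjusted p values of 0.462, 0.621 and 0.528 in edgeR.

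None of the 3 genes around the anaphase-promoting complex passed. CDC20, its mitotic activator, was at 156, 164 and 167 CPM with si-CNN3#1 and 166, 166 and 166 CPM with si-NC. The CDC20 groups overlapped, with a log2 fold change of -0.036 (standard error 0.030, edgeR adjusted p = 0.51). The highest treated sample, at 166.6 CPM, lay just above the highest control, at 166.5 CPM, and the others lay below every control. PTTG1 (securin, the inhibitor of separase) was at 92.3, 89.4 and 87.5 CPM against 95.7, 93.0 and 97.0 CPM. No PTTG1 sample crossed, and its log2 fold change of -0.085 (standard error 0.035, edgeR adjusted p = 0.11) passed in 5 of the alternative settings, each with the gene length correction, the replicate number as a block, or both. UBE2C, the ubiquitin-conjugating enzyme of this ligase, had a log2 fold change of -0.069 (edgeR adjusted p = 0.126), and its groups did not overlap either. UBE2C also passed as lower in 5 alternative settings, each again with the length correction, the block, or both.

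The 2 transcription factors did not pass. FOXM1 was at 115, 113 and 113 CPM with si-CNN3#1 and 121, 120.4 and 118 CPM with si-NC, with every treated sample lower. The log2 fold change of FOXM1 was -0.077 (standard error 0.032, edgeR adjusted p = 0.111). FOXM1 passed in 1 alternative setting, the gene length correction with a replicate block (edgeR adjusted p = 0.0425). MYBL2 was at 354, 341 and 327 CPM against 363, 356 and 345 CPM. Its groups overlapped, with a log2 fold change of -0.057 (standard error 0.028, edgeR adjusted p = 0.187). MYBL2 passed in 2 alternative settings, both with a replicate block (edgeR adjusted p = 0.0232 and 0.0365).

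Precision differed between the genes. Between 394 and 18173 reads were counted per gene and sample over the 42 genes, and standard errors ran from 0.024 for MKI67 to 0.065 for CENPA. AURKB, KIF20A, KIF4A and MKI67 passed in every alternative setting. Of the 16 lower genes, 4 did not pass with DESeq2, namely CENPA, DLGAP5, CDCA8 and KIF11 (DESeq2 adjusted p = 0.153, 0.108, 0.12 and 0.154). With total counts as the scale DLGAP5, CDCA8, ASPM, CDC25B and KIF11 did not pass (edgeR adjusted p from 0.0522 to 0.126). With limma on log2 FPKM, these genes and CENPA, NUSAP1, TOP2A, CENPF and TPX2 did not pass, and without a filter INCENP and BUB1 did not either. CDCA8 and KIF11 were also lost after thinning to the smallest total, and KIF11 with upper quartile scaling and with either length correction alone. At the other end, 19 genes passed in none. No gene passed in the opposite direction to its reported value.

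**Figure D5:**
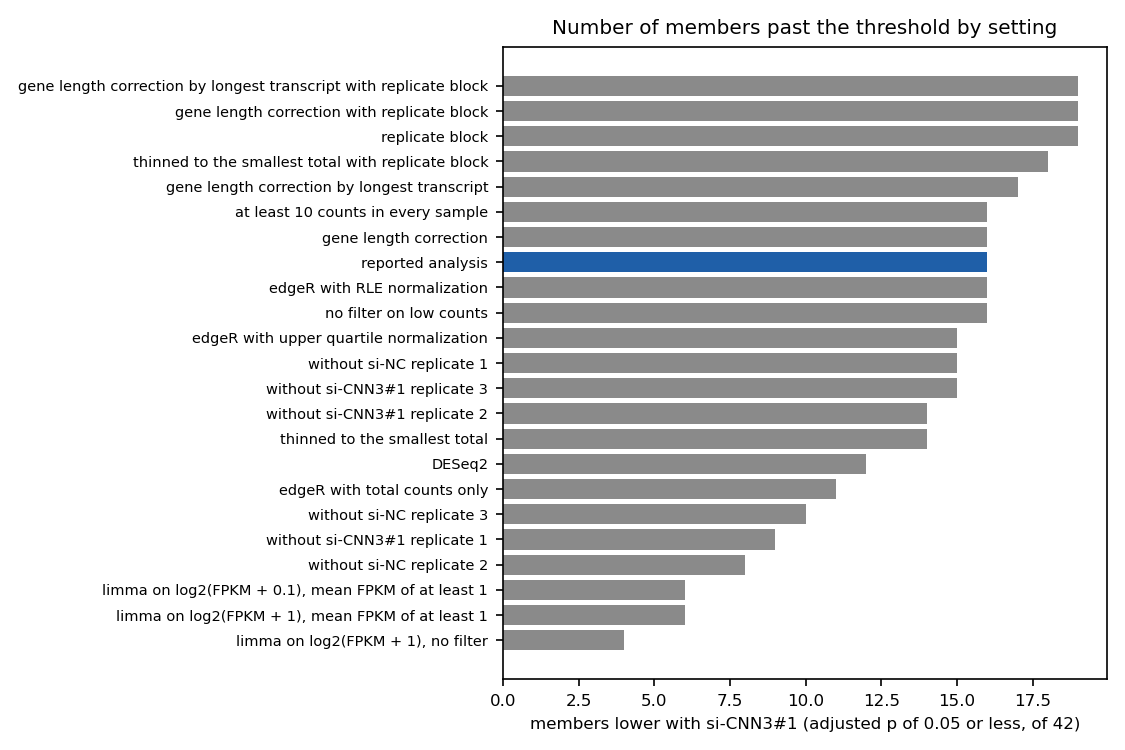
Number of the 42 genes that were lower with si-CNN3#1 at an adjusted p of 0.05 or less in the reported analysis (blue) and under each of 22 other settings (grey). The reported count is 16, and the others run from 4 (limma on log2(FPKM + 1) without a filter) to 19 (with the replicate number as a block).

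Levels in control cells were compared per length. By the deposited FPKM the most abundant of the 42 in si-NC samples was TOP2A at 379 ± 9.82 FPKM (SD, n = 3), followed by CCNB1 at 222 ± 2.63, UBE2C at 212.5 ± 4.61 and NUSAP1 at 172 ± 2.86 FPKM. The lowest were TTK at 25.4 ± 1.59, CENPA at 23.8 ± 1.84, BIRC5 at 23.2 ± 0.740 and CDC25C at 17.7 ± 0.705 FPKM, of which TTK, CENPA and BIRC5 lay within each other's spread. The length behind these values was 1639 bases for TOP2A, whose longest GENCODE transcript has 5758 bases, and it lay within 20% of the mean length of a gene's annotated transcripts, short ones included, in 41 of the 42 genes. Counted per kilobase of the longest transcript instead, UBE2C came first at 186 ± 4.04 on that scale, followed by MYBL2 at 130.1 ± 3.27, CCNB1 at 109 ± 1.29 and TOP2A at 108 ± 2.79, the last pair within their spread. MKI67 fell from 139 FPKM to 57.5 on the second scale, and PRC1 from 157 to 44.3. This divisor is the same in every sample and so does not alter the comparison of one gene between the groups. Correcting for length-dependent differences between samples is a separate step. It did change some calls, such as those of KIF11 (lost) and PTTG1 (gained).

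Gene length was also set beside the changes. Across the 42 genes, the correlation of the log2 fold change with log2 length was -0.18 by the length behind the FPKM values and -0.075 by the longest transcript, as a description over genes that share the same libraries. With a loess correction for the first length 16 genes were lower, and with one for the second 17.

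Some of these genes share exon positions with a neighbour, and the library kit does not mark strand. KIF20A overlaps BRD8 and CDC23 on the other strand, which had 70.0% and 41.7% of its counts and log2 fold changes of -0.044 and -0.025 (edgeR adjusted p = 0.417 and 0.76). KIF4A overlaps PDZD11, with 37.2% of its counts and a log2 fold change of 0.023 (edgeR adjusted p = 0.845). CDC25C, CCNA2, FOXM1, NUF2 and ANLN overlap FAM53C, EXOSC9, ITFG2, RGS5 and KIAA0895 in the same way, at 310.0%, 37.9%, 24.4%, 11.9% and 9.87% of their counts. None of these neighbours passed the threshold. The part that reads of a neighbour play in these counts was not tested. Of the pseudogenes and related genes looked at, UBE2CP2 had 14 to 28 counts a sample, the most of any, while MKI67P1 had at most 5 and KIF4B at most 1.

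Other genes of mitosis, 125 in 6 groups that do not include the 42, were also examined. Of these, 23 (18.4%) were lower and 5 higher with si-CNN3#1, with a median log2 fold change of -0.027, where 7.14% of all genes tested were lower and 6.17% higher, and 12.1% were lower of those averaging at least 20 CPM. By group, 10 of 30 other spindle, centrosome and midbody genes and 6 of 20 cohesin and condensin genes were lower and none of either group was higher. Of 11 checkpoint genes 2 were lower. The shares were near those of all genes among 27 further kinetochore genes, with 2 lower (7.41%) and 1 higher (3.70%), and among 17 genes of the anaphase-promoting complex and its regulators, with 1 lower and 1 higher (5.88% each).

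Separase (ESPL1), which cuts cohesin at anaphase, averaged 62.5 CPM (SD 0.554) in the 3 si-CNN3#1 samples and 72.8 CPM (SD 2.80) in the 3 si-NC samples, a log2 fold change of -0.22 (edgeR adjusted p = 3.74e-05). Sororin (CDCA5), which protects cohesin until mitosis, averaged 108 CPM (SD 1.59) and 122 CPM (SD 4.17), a log2 fold change of -0.17 (edgeR adjusted p = 9.82e-05). SMC1A, a cohesin ring subunit, had a log2 fold change of -0.16 (edgeR adjusted p = 1.36e-06), and NCAPH2, a condensin II subunit, one of -0.19 (edgeR adjusted p = 0.000425). The leading spindle and midbody genes were ARHGAP11A, NDE1, GTSE1 and KIF18B, with log2 fold changes of -0.21, -0.20, -0.18 and -0.15 (edgeR adjusted p = 4.11e-06, 0.00427, 3.71e-05 and 0.00893). The adjusted p of KIF18B was 0.0626 without si-CNN3#1 replicate 1 and 0.0884 without si-NC replicate 1.

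The 20 genes of entry control and MuvB went both ways, with 2 lower and 3 higher. PBK, a mitotic kinase also called TOPK, averaged 36.2 CPM (SD 2.21) in the 3 treated samples and 46.4 CPM (SD 1.29) in the 3 controls, or 78.0% of the control level (log2 fold change -0.36, edgeR adjusted p = 2.25e-07), a larger decrease than that of MKI67. CDKN1A, which encodes the CDK inhibitor p21, was higher at 142, 129.5 and 138 CPM against 117, 108 and 107 CPM, or 123% of the control level. The groups did not overlap, and the log2 fold change of CDKN1A was 0.30 (standard error 0.035, edgeR adjusted p = 1.79e-09). MYBL1 (A-MYB) and LIN9, a MuvB core subunit, were higher by log2 fold changes of 0.33 and 0.16 (edgeR adjusted p = 0.00332 and 0.0358). The call of MYBL1 was lost without si-NC replicate 3 (edgeR adjusted p = 0.0684), and that of LIN9 without si-CNN3#1 replicate 1 and without each of si-NC replicates 1, 2 and 3 (edgeR adjusted p = 0.24, 0.106, 0.0568 and 0.0918).

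In the remaining groups the changes were few. The kinetochore scaffold KNL1, which recruits BUB1, was lower by a log2 fold change of -0.17 (edgeR adjusted p = 0.000573), and its partner BUB3 by -0.082 (edgeR adjusted p = 0.0403). BUB3 lost the call without si-CNN3#1 replicates 1 and 2 and without si-NC replicates 2 and 3 (edgeR adjusted p = 0.151, 0.0701, 0.242 and 0.0805). CENPK and SPC24 were lower (log2 fold change -0.17 and -0.14, edgeR adjusted p = 0.0086 and 0.0158), and CENPH was higher (0.18, edgeR adjusted p = 0.0443). The call of CENPK was lost without si-CNN3#1 replicate 1 or si-NC replicate 1 (edgeR adjusted p = 0.117 and 0.0584), and that of SPC24 without si-CNN3#1 replicate 2, si-NC replicate 1 or si-NC replicate 2 (edgeR adjusted p = 0.0993, 0.0515 and 0.185). That of CENPH was lost without each of si-CNN3#1 replicates 1, 2 and 3 (edgeR adjusted p = 0.122, 0.0548 and 0.132) and without si-NC replicates 1 and 2 (edgeR adjusted p = 0.281 and 0.0622). CDC26, a subunit of the anaphase-promoting complex, was lower (-0.21, edgeR adjusted p = 0.0175) and UBE2S, the enzyme that extends its ubiquitin chains, was higher (0.10, edgeR adjusted p = 0.00714). CDC26 lost the call without si-CNN3#1 replicate 2, si-NC replicate 1 or si-NC replicate 3 (edgeR adjusted p = 0.193, 0.0575 and 0.103), and UBE2S without si-CNN3#1 replicate 1 or si-NC replicate 2 (edgeR adjusted p = 0.0831 and 0.0558).

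Several of these calls also depended on the tool. DESeq2 did not call KIF18B, MYBL1, LIN9, BUB3, CENPK, SPC24, CENPH or CDC26 (DESeq2 adjusted p = 0.068, 0.0617, 0.199, 0.092, 0.0716, 0.116, 0.242 and 0.141). Limma on log2 FPKM did not call KIF18B, LIN9, BUB3, CENPK, SPC24, CDC26 or KNL1, and without a filter it did not call ESPL1, NCAPH2, NDE1, MYBL1, CENPH or UBE2S either. Thinning to the smallest total ended the calls of LIN9, BUB3, SPC24 and CENPH, and fitting all genes without a filter on counts those of LIN9 and CENPH. BUB3 was also lost with upper quartile or total-count scaling, and CENPH with either length correction.

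Genes of the preceding part of the cycle give a further comparison. Of 33 G1/S and replication genes tested, 7 were lower (21.2%) and 1 higher (3.03%), with 26 below 0 and a median log2 fold change of -0.050, against -0.071 for the 42 genes of G2 and mitosis. The difference between these lists was not tested. In their promoters TTTGAA was present in 2 of 29 genes (6.90%) and CCAAT in 19 (65.5%).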

How the data were processed

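RNA was sequenced from 3 si-CNN3#1 and 3 si-NC samples of SiHa cells. The authors aligned screened reads with TopHat2 2.0.9 and Bowtie2 2.0.6 and deposited raw read counts per Ensembl gene, with HTSeq among the tools of the processing notes; the genome build, annotation and strand setting are not given in the sources used here. The deposited FPKM values equal count over gene length and column total for 100% of values above 0 (length within 0.01 base). GENCODE 29 named 45342 of 48162 genes.

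Counts were tested with edgeR 4.0.16 in R 4.3.3 (TMM, filterByExpr, glmQLFit, glmQLFTest, condition as the only term, Benjamini-Hochberg adjustment over 15860 genes, threshold 0.05). The standard error is the absolute log2 fold change over the square root of F. The common biological coefficient of variation was 0.0232. The p values and standard errors rest on this small spread within groups. The sources used here do not say in what way the assays of a group were independent. Each test was run on simulated data first. Pairs of samples of a group differed by a chi-square of 1.56 to 1.97 per degree of freedom, and none was merged. The members and lists were chosen with earlier results of these data known. Named are CNN3, each of the 42 genes, and of the other mitotic genes up to 4 called genes a group by absolute log2 fold change.

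Alternatives were RLE, upper quartile and total-count scaling, DESeq2 1.42.0, no filter or at least 10 counts in every sample, a replicate block, a loess correction for gene length (span 0.3), thinning to the smallest total, leaving out each sample, and limma 3.58.1 on FPKM after log2 with a pseudocount of 1 (genes averaging 1 or more, or all genes) or 0.1, a scale that understates the change of low genes. The library kit marks no strand. The correction by the longest transcript was added after the data were seen. UHRF1 and PECAM1 were not analysed here.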

Additional observations from a re-analysis of the deposited data

How the results depend on the processing

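The 42 genes kept a median log2 fold change below 0 in all 22 alternatives, and 34 to 38 of them were below 0. Their median was -0.054 with total counts as the scale and -0.0543, -0.0539 and -0.0539 with limma (pseudocount 0.1, pseudocount 1, and pseudocount 1 without a filter), all on a scale without TMM, and -0.081 to -0.0673 when 1 sample was left out. Limma called 6, 6 and 4 of the 42 lower in that order, against 16, and leaving out 1 sample 8 to 15. Of the other mitotic genes limma called 10, 10 and 5 lower and DESeq2 12, against 23, with 14 to 22 when 1 sample was left out. Higher were 2 with DESeq2, 1 with limma without a filter, 3 without a filter on counts, 3 after thinning and 2 to 4 without 1 sample, against 5. Over all genes limma called 564, 564 and 269 lower and DESeq2 640, against 1133, and higher were 433 with DESeq2 and 316 with limma without a filter, against 978. Lower genes were 41.7%, 41.4% and 46.0% of limma's calls. The cause of these differences was not tested.

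Values near 0 changed sign without passing. NDC80 was 0.0112 with total counts, 0.0169, 0.0166 and 0.0166 with limma, 0.0011 with the longest-transcript correction and block, and -0.0549 to 0.0382 without 1 sample. CENPE was 0.0004 in each limma fit and -0.0433 to 0.0045 without 1 sample, AURKA -0.0414 to 0.0006 and PRC1 -0.0006 to 0.024. Of the 924 gene values of the 42, 822 kept direction and call, 72 lost the call, 16 gained it and 14 changed sign.

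With the replicate number as a block, 19 of the 42 genes were lower, and 1455 of all genes were lower and 1272 higher; after thinning with the block 18 of the 42 were lower and 1 (HMMR) higher. Deviations of same-numbered samples correlated at 0.046, 0.102 and 0.071, and each sample correlated best with its own number, a hint from the data, not the design, so the numbers were not taken to pair the samples. The longest-transcript correction was chosen after seeing the data. Depth limits the least counted genes most.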
